A study of Homo sapiens with 28 samples.

Results

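The genes described here are the SR proteins and the heterogeneous nuclear ribonucleoproteins (hnRNPs), the main families of RNA-binding proteins that steer splice site choice. They were taken by name, as protein-coding genes of the GENCODE annotation of hg38 whose symbol is SRSF with a number or begins HNRNP, which gave 39 genes (12 SR and 27 hnRNP) among 20033 protein-coding genes. N6-methyladenosine (m6A) had been mapped on chromatin-associated RNA by antibody pulldown and sequencing, and each of 14 immunoprecipitated libraries gave 1 list of m6A peaks. A peak was counted for a gene when its summit, the point of highest signal, lay on the strand of the gene between 1000 bases upstream of its start and its end. After peaks of the 14 lists that overlapped on the same strand had been merged, 103 of 86481 regions belonged to these genes, 29 to SR and 74 to hnRNP genes.

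The libraries came from 3 human cell lines, HepG2 (hepatocellular carcinoma), K562 (chronic myeloid leukaemia) and NB4 (acute promyelocytic leukaemia). There were 2 libraries of unmodified (WT) HepG2 cells, 2 of WT K562 cells, 2 each of K562 cells carrying a lentiviral control shRNA (Control) or a lentiviral shRNA against RBFOX2 (RBFOX2 KD), and 3 each of NB4 Control and NB4 RBFOX2 KD cells. Which RBFOX2 hairpin was used is not given in the labels. The methods of the study call the replicates biological, but the labels only number them and do not name separate cultures, so p-values measure the spread between these samples, and all values describe cultures of 1 line each.

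SR proteins carry RNA recognition motifs and a tail rich in arginine and serine dipeptides, and they mostly promote the use of nearby exons. Proteins of the hnRNP group coat nascent transcripts and often repress exons, and members of both families are retained on chromatin while transcription goes on. Many of these genes limit their own expression through a poison exon, an alternative exon with a premature stop codon that sends the transcript to nonsense-mediated decay (NMD). METTL3 and its partners write m6A on nascent RNA, commonly at the bases GGACT, and RBFOX2, itself a splicing regulator, is known to bind the hexamer TGCATG.

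Below are windows of the hg38 genome at the summits on which the results turn, read 5′ to 3′ on the strand of the gene, with each GGACT or AGATG in capitals. AGATG was searched beside GGACT because it is a motif that the study examined. Windows that would touch an annotated untranslated region (UTR) were kept to 25 bases around the nearest of these motifs, or around the summit where neither lay within 75 bases. The first set shows regions of high rank among the hnRNP genes and the SR genes, namely HNRNPUL2 exon 1 at chr11:62726943-62727093 (minus strand), HNRNPUL1 exon 1 at chr19:41264603-41264753 (plus), HNRNPUL1 intron 1 at chr19:41268211-41268235 (plus), HNRNPF exon 4 at chr10:43387382-43387532 (minus) and SRSF2 upstream of its start at chr17:76737708-76737858 (minus).
HNRNPUL2 exon 1: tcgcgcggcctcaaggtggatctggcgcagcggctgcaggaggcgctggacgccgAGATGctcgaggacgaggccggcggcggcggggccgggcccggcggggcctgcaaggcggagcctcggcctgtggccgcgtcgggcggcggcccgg
HNRNPUL1 exon 1: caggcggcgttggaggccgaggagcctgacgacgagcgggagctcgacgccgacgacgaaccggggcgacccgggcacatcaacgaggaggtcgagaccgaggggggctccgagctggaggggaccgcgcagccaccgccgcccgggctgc
HNRNPUL1 intron 1: ttttgttttaAGATGccatggacaa
HNRNPF exon 4: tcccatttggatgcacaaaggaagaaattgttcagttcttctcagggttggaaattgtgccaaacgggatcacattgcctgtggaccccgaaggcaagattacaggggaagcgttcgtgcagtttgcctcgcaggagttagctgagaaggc
SRSF2 upstream: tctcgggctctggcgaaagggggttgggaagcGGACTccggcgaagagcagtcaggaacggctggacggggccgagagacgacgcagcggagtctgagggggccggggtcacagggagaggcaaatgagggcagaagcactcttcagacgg

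The second set shows regions in introns that hold a poison exon, namely HNRNPLL intron 6 at chr2:38581547-38581571 (minus strand), HNRNPL intron 6 at chr19:38842528-38842678 (minus) and SRSF10 intron 2 at chr1:23978189-23978213 (minus, within the poison exon itself). The last 2 lines give regions listed in all 6 libraries of 1 cell line and in no other library, HNRNPM exon 1 at chr19:8444989-8445013 (plus) and HNRNPH1 exon at chr5:179634680-179634704 (minus).
HNRNPLL intron 6: tctatggaaaGGACTttcccccaag
HNRNPL intron 6: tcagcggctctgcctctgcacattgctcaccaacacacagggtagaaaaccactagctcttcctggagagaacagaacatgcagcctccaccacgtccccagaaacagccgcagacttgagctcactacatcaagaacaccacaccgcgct
SRSF10 intron 2: gtagagttcaacacttaaggcaagt
HNRNPM exon 1: cgcggagaaaatggcggcaggggtc
HNRNPH1 exon: ccagcgctggAGATGgagaagcttt

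Across all 103 regions, GGACT lay within 75 bases of the strongest summit in 15 (14.6%), against 22.6% of the 56690 sense-strand regions of all protein-coding genes. AGATG was found in 25 of the 103 windows (24.3%, against 23.4%). Within 50 bases of the summit the shares were 11.7% against 16.4% for GGACT and 22.3% against 16.4% for AGATG, so the near equality for AGATG held only in the wider window. TGCATG was found in none of the 103 windows, where 3.47% of all windows held it. Among the 20 regions listed in every library, 5 windows (25%) held GGACT and 8 (40%) held AGATG. Of the 28 regions listed in 1 library only, 1 window held GGACT and 5 held AGATG. The matching subsets of all protein-coding genes were not counted, so these subset shares have no background and the shares above do not serve as one. The motifs, none of which can overlap another by more than its end letters, were searched on the strand of the peak only, and the shares describe letters in a window without a test.

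The 14 lists held 22700 to 44088 peaks and had an effective depth, recovered from the peak values themselves and given in units of 1e6 reads, of 10.8 to 32.9. The pileups so recovered were whole numbers (within 0.02) in 11 libraries, but only 3.15% to 3.92% of them were whole in both HepG2 libraries and in the NB4 Control library of replicate 3, whose depth is therefore uncertain. HepG2 lists were the shortest (22700 and 27438 peaks), and the depth of the NB4 KD libraries (16.8 to 21.9) lay mostly above that of NB4 Control (10.8 to 17.2). Of summits in coding exons, 89.8% to 93.7% lay on the sense strand. Of 8 erythroid marker genes, 8 had a summit in both K562 WT libraries, 7 in both K562 Control and 7 in both K562 KD libraries, against 1 in every NB4 Control, 2 in every NB4 KD and 1 in both HepG2 libraries. EPOR had one in all 14 libraries and GATA1 in all 3 NB4 KD but no NB4 Control library. Of 6 promyelocyte markers, 4 had a summit in every NB4 Control and every NB4 KD library, and AZU1 also had one in both K562 WT libraries. Of 7 hepatocyte markers, 2 had a summit in both HepG2 libraries and none in K562 or NB4, while ALB, AFP and the promyelocyte marker ELANE had none anywhere. RBFOX2 had 3 and 2 summits in the K562 Control libraries, 3 in each K562 KD library, 1 in each K562 WT library, 1 or 2 in every NB4 library and none in HepG2. A peak does not measure the level of RBFOX2 RNA, so the knockdown itself could not be checked here.

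Of the 39 genes, 19 (48.7%) had a summit in all 14 libraries, against 25.4% of all protein-coding genes. These 19 were made up of 6 of the 12 SR genes and 13 of the 27 hnRNP genes. Of the 6, SRSF2 reached all 14 libraries only through a region upstream of the gene. SRSF9 did so only through a region that overlaps the long non-coding RNA NRAV. Whether the RNA of these regions belongs to these genes was not tested. Of the 13, HNRNPA1L2 is nearly identical to HNRNPA1 at its summit (97.4%). All protein-coding genes were counted by the same rule, without a check of such overlaps. The 13 include HNRNPUL2-BSCL2, a readthrough gene that takes in the summits of HNRNPUL2. Its 2 other regions were listed in 3 libraries and in 1 library. A further 12 genes had a summit in some libraries, and 8 had none in any, so 79.5% had one in at least 1 library, against 63% of all protein-coding genes. HepG2 WT 1, the library with the shortest list, decided several of the absences, for 24 genes had a summit in every library once it was left out. The share of all protein-coding genes was not counted again without this library. That library held summits in 20 of the genes, while the other 13 libraries held them in 25 to 30. The share of genes reached need not reflect methylation alone, because a gene with little chromatin-associated RNA cannot give a peak, and RNA level was not measured in these files.

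The genes without any summit were HNRNPA1, HNRNPK, SRSF3, HNRNPA1L3 and the HNRNPC-like genes HNRNPCL1, HNRNPCL2, HNRNPCL3 and HNRNPCL4. HNRNPA1 encodes one of the most abundant nuclear hnRNPs, a repressor of exon inclusion, and HNRNPK a poly(C)-binding hnRNP. SRSF3 is the smallest SR protein, and its gene has 3 annotated exons of NMD transcripts that lie wholly inside introns of its canonical transcript. In contrast, HNRNPA1L2, an intronless relative of HNRNPA1 on chromosome 13, had a region in all 14 libraries (chr13:52642478-52643539, coding sequence, percentiles from 23.8 to 86.2). Over 151 bases at its summit, 147 were identical to the canonical HNRNPA1 transcript (97.4%), so the assignment of these reads to either copy is uncertain.

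**Figure D1:**
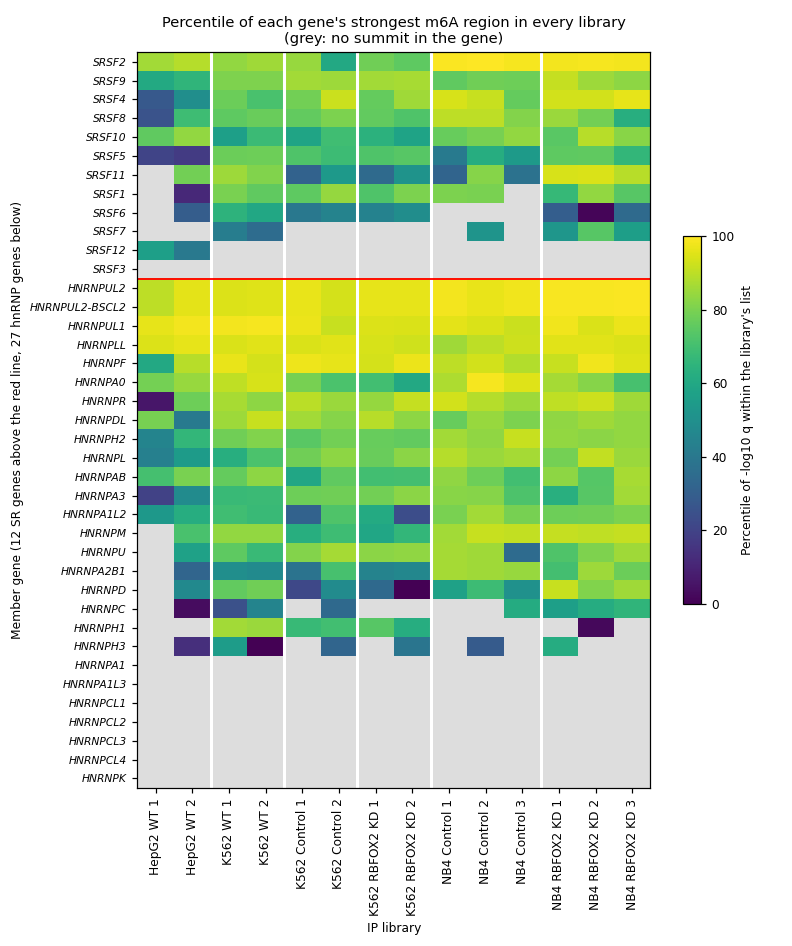
Percentile of the strongest m6A region of each of the 39 genes (rows, 12 SR genes above the red line and 27 hnRNP genes below) in each of the 14 libraries (columns), where 100 is the strongest peak of that library by −log10 q and grey means no summit in the gene. Genes are ordered by the number of libraries and then by mean percentile, the readthrough gene HNRNPUL2-BSCL2 is shown with the regions it shares with HNRNPUL2, and 8 genes are grey throughout.

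To compare strength between libraries of unequal depth, each region was ranked by its −log10 q within its own list, so that a percentile of 50 is the middle of the list. The 20 regions listed in every library (8.91% of all 86481 regions were) had a median percentile between 61.7 (HepG2 WT 1) and 87.5 (NB4 Control 2). The medians of all 7708 regions listed in every library were 71.3 and 79.5 in the same 2 libraries. Members stood above that background in all 6 NB4 libraries (83.3 to 87.5, against 77.1 to 83.1) and below it in 5 of the 6 K562 libraries (77.8 to 82, against 83.6 to 86.1), the exception being K562 RBFOX2 KD 2 (82.8 against 82.4). No test was made of these medians.

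The highest mean percentile belonged to HNRNPUL2, a relative of the nuclear scaffold protein HNRNPU, at a region over its exon 1 (chr11:62726614-62727553, minus strand, coding sequence). Its percentiles were 90.1 and 95.8 in HepG2 WT, 94.6 and 95 in K562 WT, 96.7 and 93.4 in K562 Control and 96.4 in both K562 KD libraries. In NB4 they were 98.2, 96.7 and 97.9 in Control and 99.2, 99 and 99.3 in KD. All 14 values were 90.1 or more, and the NB4 KD libraries lay above every other library. The readthrough gene HNRNPUL2-BSCL2 shares this region, which is listed as a region of HNRNPUL2 alone. In the counts of genes with a summit, it counts for both genes.

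HNRNPUL1, another relative of HNRNPU that binds RNA and acts in the DNA damage response, had 10 regions, of which 3 were listed in every library. The region over its exon 1 (chr19:41264287-41265158, coding sequence) ranged from 80.3 in HepG2 WT 1 to 97.2 in K562 Control 1. Another, in intron 1 (chr19:41268078-41268322), lay over an exon of another protein-coding transcript. Its percentiles were 96.3 and 98.4 in HepG2 WT and 98.4 and 98.6 in K562 WT, but 86.2 to 90.7 in the K562 Control and KD libraries. In NB4 they were 90.3, 93.2 and 86.5 in Control and 98, 94.3 and 96.9 in KD. The WT libraries lay above all K562 libraries with an shRNA, and the shRNA and any separate preparation of these cells cannot be told apart.

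HNRNPF, which binds G-rich tracts near splice sites and polyadenylation signals, had its strongest region in coding exon 4 (chr10:43386568-43388070, minus strand), at a mean percentile of 91.5. It stood at 93.7 to 97.5 in the K562 libraries, at 88.5 to 97.7 in the NB4 libraries and at 60.2 and 89.2 in HepG2 WT. A peak overlapped it on the opposite strand in all 14 libraries. Of the 103 regions, 93 had no opposite-strand peak in any list, and of the 20 listed in every library, 15 had none. HNRNPLL, a regulator of alternative splicing in lymphocytes, HNRNPA0, a binder of AU-rich elements, HNRNPR, a relative of SYNCRIP, and HNRNPDL, a relative of HNRNPD, completed the hnRNP genes among the 10 regions of highest mean percentile. HNRNPA0 (single coding exon, chr5:137752876-137754280) ranged from 60.2 in K562 RBFOX2 KD 2 to 98.8 in NB4 Control 2. HNRNPR (exon 11, chr1:23310133-23311017) was at 6.1 in HepG2 WT 1 and between 78.1 and 93.1 in the other 13 libraries. HNRNPDL (5′ UTR, chr4:82429634-82430599) was at 62.8 and 29.7 in HepG2 WT and at 76.8 or more elsewhere.

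SRSF2 held the strongest region of any SR gene. This factor promotes exon inclusion and is recurrently mutated in myeloid neoplasms. The region (chr17:76737392-76737918, minus strand) lay wholly upstream of the annotated gene, with its summit 452 bases before the canonical start and within the same 34 bases in all 14 libraries. Percentiles were 99.5, 99.7 and 98.8 in NB4 Control and 98.3, 98.8 and 98.1 in NB4 KD, 86.3 and 89 in HepG2 WT, and 60.2 to 85.8 in the 6 K562 libraries. The NB4 libraries did not overlap those of either other line. No list had a peak on the opposite strand there. Whether this RNA is part of the SRSF2 transcript was not tested.

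SRSF4, an SR protein with a long arginine-serine tail, had its region over coding exon 6 (chr1:29147895-29149289, minus strand), with 27.8 and 49.3 in HepG2 WT, 71.4 to 91.9 in K562 and 76.2 to 96.4 in NB4. Its strongest summit moved by up to 1043 bases between libraries, the widest spread among the 20 regions (median 91 bases, lowest 6), so libraries did not all mark the same site. SRSF8, an intronless SR gene, ranged from 25.7 in HepG2 WT 1 to 90.1 in NB4 Control 2 at a region whose summit lay just before the stop codon (chr11:95067934-95068465). SRSF5, whose product responds to insulin and growth signals, was listed in every library at a site 26 bases past its stop codon (chr14:69771283-69771628, 3′ UTR). SRSF9 was listed in every library at a region (chr12:120490897-120492156) that lies 21446 bases upstream of its canonical start and overlaps the long non-coding RNA NRAV on the same strand, so these reads may belong to either gene. SRSF1, the founding SR protein, had a 3′ UTR region 1638 bases past the stop codon (chr17:58003654-58004078) in 12 libraries, with summits within 6 bases of one another, although another protein-coding gene model overlaps it on the same strand. SRSF12, an SR protein that counteracts other SR proteins, was listed in both HepG2 libraries (56.3 and 40.4, coding exon 5, chr6:89098569-89098869) and nowhere else.

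By gene part at the strongest summit of each region, 33 of the 103 regions (32%) lay in coding sequence, against 22.1% of the sense regions of all protein-coding genes. A further 8 (7.77%, against 4.21%) lay in 5′ UTRs and 9 (8.74%, against 10.9%) in 3′ UTRs. Introns without a poison exon held 36 (35%, against 47.7%), and introns with one held 8 (7.77%, against 6.24%). Another 2 regions lay upstream of the gene, and 7 lay outside the canonical transcript but within the annotated gene. Of the 20 regions listed in every library, 11 lay in coding sequence (55%, against 49%), 2 in 3′ UTRs (10%, against 22.5%), 2 in introns with a poison exon (10%, against 3.16%) and 2 in other introns (10%, against 16.4%). These shares were not tested, and 11.8% of the sense regions of all protein-coding genes were listed in every library, against 20 of the 103 here.

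**Figure D2:**
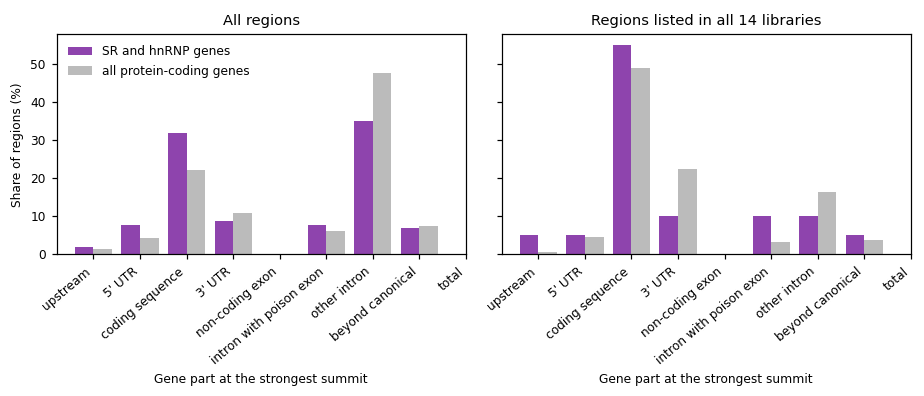
Share of regions (%) by the gene part under the strongest summit, for the SR and hnRNP genes (purple) and for all protein-coding genes (grey), over all regions (left, 103 and 56690 regions) and over the regions listed in all 14 libraries (right, 20 and 6704 regions). Coding sequence held 32% of member regions on the left and 55% on the right, and the bars carry no error because each is a count over fixed regions.

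An intron was counted as holding a poison exon when an exon of an annotated NMD transcript of the gene lay wholly inside an intron of the canonical transcript. Whether that exon holds the premature stop codon was not checked. SRSF10, an SR-related factor that acts as a repressor when dephosphorylated, had the one region in at least 7 libraries whose summit lay within such an exon (exon at chr1:23977911-23978273, region at chr1:23978100-23978340, intron 2). It was listed in 13 libraries and missing from HepG2 WT 1, with 83.9 in HepG2 WT 2, 56.6 and 68.2 in K562 WT, 58.5 and 69.5 in K562 Control and 29.1 and 58.2 in K562 KD. In NB4 it stood at 76.6, 79.4 and 83.6 in Control and 74.3, 89.1 and 82.1 in KD. All NB4 values lay above all K562 values.

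HNRNPL, which binds CA-rich RNA and represses exons, was listed in all 14 libraries in its intron 6 (chr19:38841515-38843633, minus strand). The region ran across the whole poison exon at chr19:38841613-38841682, although the strongest summit lay 921 bases from it. Percentiles were 43.5 and 54.7 in HepG2 WT, 62.5 and 71.7 in K562 WT, 77.1 to 82.9 in the other K562 libraries and 76 to 90.7 in NB4. By group the means ± SD were 49.1 ± 7.94 in HepG2 WT (n = 2), 67.1 ± 6.49 in K562 WT (n = 2), 80.7 ± 3.15 in K562 Control (n = 2) and 86.9 ± 1.97 in NB4 Control (n = 3). HepG2 WT lay below every other group without overlap, and neighbouring shRNA groups overlapped.

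HNRNPLL, a close relative of HNRNPL, ranked high in its intron 6 in every library (chr2:38581109-38581839, 85.9 to 96.4), but its summit lay 3547 bases from the poison exon and inside an exon of another protein-coding transcript. HNRNPA2B1, known as a reader of m6A on nuclear RNA and the largest contributor of regions together with HNRNPUL1 (10 each), had a region in intron 1 in 11 libraries (chr7:26200450-26200754, 429 bases from the poison exon). It was absent from both HepG2 libraries and from NB4 Control 3, and ranged from 20.3 to 71 where listed. SRSF4 had one in intron 1 in 10 libraries (chr1:29178804-29179271, 9.69 to 69.8), 10574 bases from its nearest poison exon. The other 3 regions of this kind, in SRSF9, SRSF4 and HNRNPLL, were listed in 5 libraries or fewer.

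**Figure D3:**
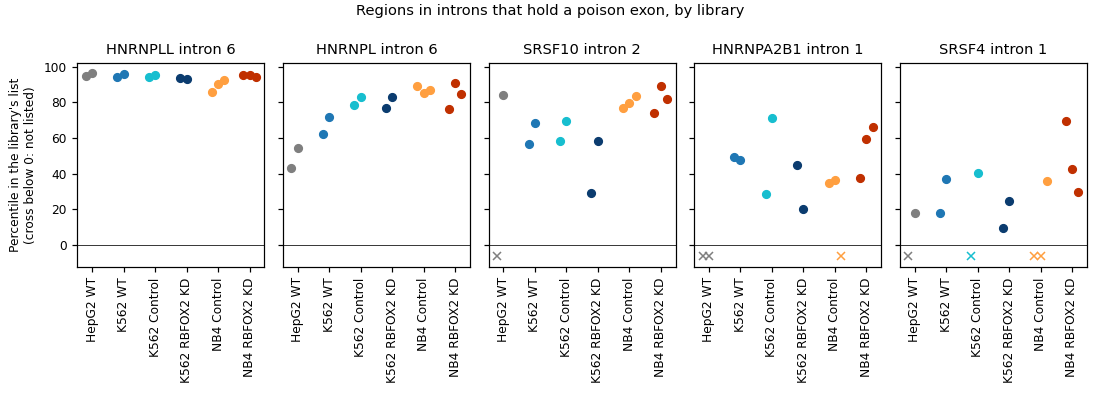
Percentile (vertical axis) of the 5 regions in introns with a poison exon that were listed in at least 7 libraries, by group (horizontal axis, 1 point per library, 2 or 3 per group, crosses below 0 for libraries without the region). HNRNPLL stayed between 85.9 and 96.4 in all libraries, while HNRNPL ran from 43.5 in HepG2 WT 1 to 90.7 in NB4 RBFOX2 KD 2.

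Ranked over the 6 groups by mean percentile, the 20 regions listed in every library had their highest group in NB4 for 10, in K562 for 7 and in HepG2 for 3. By fold enrichment, the ratio of pileup to local background given by the peak caller, the highest group was in K562 for 18, in NB4 for 2 and in HepG2 for none, so the order of the lines depends on the measure. These folds were uncentred, and the median fold of whole lists was 5.68 to 8.01 in K562, 5.08 to 6.14 in NB4 and 3.84 and 4.03 in HepG2. The highest group was not counted over all 7708 regions for either measure, so neither count has a background. In the 100 pairs of neighbouring groups in these orders, 66 pairs overlapped in the values of their libraries, against 71.1% of such pairs over all 7708 regions listed in every library. SRSF9 was the one member region whose 6 groups were all separated (0.389% of the 7708 regions were), in the order K562 KD (86.5), K562 Control (85.7), K562 WT (80.8), NB4 Control (75.5), HepG2 WT (63.1) and NB4 KD (54.8). The closest libraries of K562 KD and K562 Control stood at 86.2 and 86.1, and this region is the one that overlaps NRAV. HNRNPF and both HNRNPAB regions had no separated neighbours. With 2 or 3 libraries a group, an exact two-sided permutation test cannot go below p = 0.333 for 2 against 2, 0.2 for 2 against 3 and 0.1 for 3 against 3, so no such test could reach 0.05.

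The difference between unmodified K562 and HepG2 cells was examined by presence and by fold. Of the 76 member regions listed in either group, 18 were in both K562 WT libraries and no HepG2 library (37.7% of all regions were) and 2 in both HepG2 libraries and no K562 WT library (10.3% of all regions). The K562 share of the members, 23.7%, lay below the background. The 18 included HNRNPH1, which binds G-rich RNA, and 5 regions in 5′ UTRs. Of these 5, HNRNPLL stood at 75.1 and 76 in K562 WT, SRSF5 at 59.6 and 51.8, SRSF9 at 46.5 and 29.8, SRSF7 at 42.2 and 35.4 and SRSF6 at 56.2 and 0.355. The coding exons were HNRNPC exon 8 (24.8 and 45), HNRNPU exon 14 (17.7 and 21.1) and SRSF11 exon 1 (20.3 and 8.01). Introns held HNRNPL intron 1 (61.8 and 46.3), SRSF9 intron 1 (51.3 and 38.8), HNRNPA2B1 intron 1 (49.5 and 47.8), HNRNPUL2-BSCL2 intron 14 (23.6 and 13.4, shared with BSCL2) and HNRNPA3 intron 2 (3.94 and 7.97). The others were the 3′ UTRs of HNRNPUL2 (37.7 and 36.9) and SRSF8 (42.8 and 20.2), HNRNPA2B1 past its canonical transcript (35.2 and 28.6) and SRSF9 where it overlaps NRAV (8.02 and 2.38). The 2 HepG2 regions were SRSF12 and intron 6 of HNRNPA3 (1.64 and 14.1), the latter also listed in 2 NB4 libraries. Without HepG2 WT 1, 10 regions were in HepG2 only, and without HepG2 WT 2, 30 were in K562 only. The shares over all regions were not counted for these omissions.

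By limma on log2 fold, centred on each library's median and fitted over the 12860 regions listed in all 4 libraries, 4 of 24 member regions differed between K562 WT and HepG2 WT at an adjusted p under 0.05. Of all regions tested, 32.6% did, 14% higher and 18.6% lower in K562, and an unadjusted p under 0.05 was reached by 10 of the 24 and by 45.7% of all regions. The SRSF5 site behind the stop codon was higher, with folds of 5.85 and 6.44 in K562 against 1.93 and 1.79 in HepG2 and a log2 difference of 0.68 ± 0.18 (SE, adjusted p = 0.0347). The regions that were lower relative to their libraries were HNRNPUL1 exon 13 (-1.04 ± 0.17, adjusted p = 0.00995), HNRNPUL2 exon 1 (-0.68 ± 0.19, adjusted p = 0.0388) and HNRNPUL1 exon 3 (-0.52 ± 0.15, adjusted p = 0.0434). Centring matters for these values, since the library medians of log2 fold were 1.05 higher in K562 WT. The uncentred folds of HNRNPUL1 exon 13 overlapped, at 1.9 and 2.56 in HepG2 and 2.11 and 2.34 in K562. Uncentred, the other lower regions were higher in K562 without overlap, with 4.72 and 5.84 in HepG2 against 7.53 and 7.56 in K562 at HNRNPUL1 exon 3, and 5.53 and 8.39 against 8.76 and 8.74 at HNRNPUL2 exon 1. These 3 regions were therefore lower only relative to the median of their libraries. The calls of these 4 regions were lost without either K562 WT library. That of HNRNPUL1 exon 3 was lost whichever library was left out, and those of HNRNPUL2 exon 1 and SRSF5 in most such fits. The log2 differences then ranged from -1.13 to -0.92 at HNRNPUL1 exon 13 and from -0.55 to -0.47 at HNRNPUL1 exon 3. At HNRNPUL2 exon 1 they ranged from -0.86 to -0.48, and at the SRSF5 site from 0.52 to 0.86. Each of these fits had 1 library in a group.

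Between NB4 and K562 cells that both carried the control shRNA, 3 of 70 member regions were in all NB4 Control libraries and no K562 Control library (10.2% of all regions), and 5 were in both K562 Control libraries and no NB4 Control library (20.5%). Both shares lay below the background. HNRNPM, an hnRNP that binds GU-rich sites, was listed at its exon 1 (chr19:8444887-8445324) in all 6 NB4 libraries and in none of the other 8. Its percentiles were 86, 91.6 and 91 in Control and 91.2, 90.5 and 91.3 in KD. The summit lay 26 bases from the canonical start and moved by 3 bases at most. Intron 7 of HNRNPA3, a relative of HNRNPA1 (chr2:177217595-177217794), was likewise in the 6 NB4 libraries only (60.9 to 74.7), and the 5′ UTR of SRSF9 was in them (71.4 to 91.1) and in both K562 WT libraries (46.5 and 29.8).

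The opposite case was HNRNPH1, whose region at the most upstream annotated start (chr5:179634013-179635154, minus strand, 11050 bases upstream of the canonical start) was listed in all 6 K562 libraries and in none of HepG2 or NB4. Its percentiles were 86.3 and 84.9 in WT, 67.5 and 69.6 in Control and 74.2 and 62.3 in KD. The strongest summit moved by 539 bases among these libraries. The other 4 regions in K562 Control but not NB4 Control lay in the 3′ UTRs of SRSF6 (40 and 44.6) and SRSF8 (9.28 and 33.6), in intron 2 of SRSF9 (27.3 and 12) and in the SRSF9 stretch shared with NRAV (38.1 and 54.3). Without K562 Control replicate 1, 15 regions were in K562 only and 5 in NB4 only, and the shares over all regions were not counted for this omission. From the presence of peaks in the immunoprecipitated libraries alone, fewer molecules of a gene and less methylation per molecule cannot be told apart.

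By fold, 9 of 29 member regions differed between NB4 Control and K562 Control (limma, adjusted p under 0.05), 4 higher and 5 lower in NB4. Of all 11508 regions tested, 24.4% did, 13.2% higher and 11.2% lower, and an unadjusted p under 0.05 was reached by 9 of the 29 and by 38.5% of all regions. The SRSF2 upstream region was higher by 1.32 ± 0.38 on the log2 scale (SE, adjusted p = 0.03). Its uncentred folds were 26, 24.6 and 12.6 in NB4 and 21 and 8.88 in K562, which overlapped, the library medians being 0.76 lower in NB4 on the log2 scale. The HNRNPUL2 site in the 3′ UTR (chr11:62714814-62714992) was higher by 1.41 ± 0.28 (adjusted p = 0.00664), with folds of 11.7, 9.16 and 10 in NB4 and 8.56 and 4.98 in K562. HNRNPL exon 1 (1.30 ± 0.34, adjusted p = 0.0205) and HNRNPA1L2 (1.10 ± 0.35, adjusted p = 0.0419) were the other regions higher in NB4. The HNRNPUL2 3′ UTR passed in 4 of the 5 fits that left out 1 library (1.07 to 1.65), and missed without K562 Control replicate 2. SRSF2 passed in 2 of 5, with 0.75 without K562 Control replicate 2, and was also lost without NB4 Control replicate 1 or 2. HNRNPL exon 1 passed in 3 of 5, with 0.73 without K562 Control replicate 1, and was also lost without NB4 Control replicate 2. HNRNPA1L2 passed only without K562 Control replicate 2 (1.63) and was at 0.47 without K562 Control replicate 1.

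Lower in NB4 were the HNRNPDL 5′ UTR (-1.11 ± 0.26, adjusted p = 0.0138), HNRNPUL2 exon 1 (-1.09 ± 0.26, adjusted p = 0.0148), HNRNPUL1 exon 1 (-1.08 ± 0.32, adjusted p = 0.0316), HNRNPF exon 4 (-1.03 ± 0.32, adjusted p = 0.0392) and the SRSF5 3′ UTR (-0.80 ± 0.26, adjusted p = 0.0457). The SRSF5 call was lost whichever library was left out (-0.89 to -0.71, adjusted p = 0.0684 to 0.147). HNRNPF passed only without K562 Control replicate 2 (-1.56) and was at -0.59 without K562 Control replicate 1. HNRNPUL1 exon 1 passed in 2 of 5 such fits (-0.69 without K562 Control replicate 1, and also lost without NB4 Control replicate 2 or 3), whereas HNRNPDL and HNRNPUL2 exon 1 passed in 4 of 5 each and were lost without K562 Control replicate 1. At HNRNPUL2 exon 1 the groups did not overlap, with folds of 37 and 25 in K562 against 9.15, 7.81 and 8.4 in NB4. Its percentile in the same libraries was not lower in NB4, where it stood at 96.7 to 98.2 against 93.4 and 96.7. With the probit of the percentile in place of fold, 5 member regions were higher in NB4 and none lower, and HNRNPUL2 exon 1, HNRNPUL1 exon 1 and the HNRNPDL 5′ UTR changed sign without passing the threshold. By fold, the 2 HNRNPUL2 sites differed in opposite directions, with the 3′ UTR higher and exon 1 lower in NB4. Without K562 Control replicate 1, 2 of the 29 regions passed, both higher, and without NB4 Control replicates 1, 2 or 3 in turn 5, 3 and 5 passed.

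**Figure D4:**
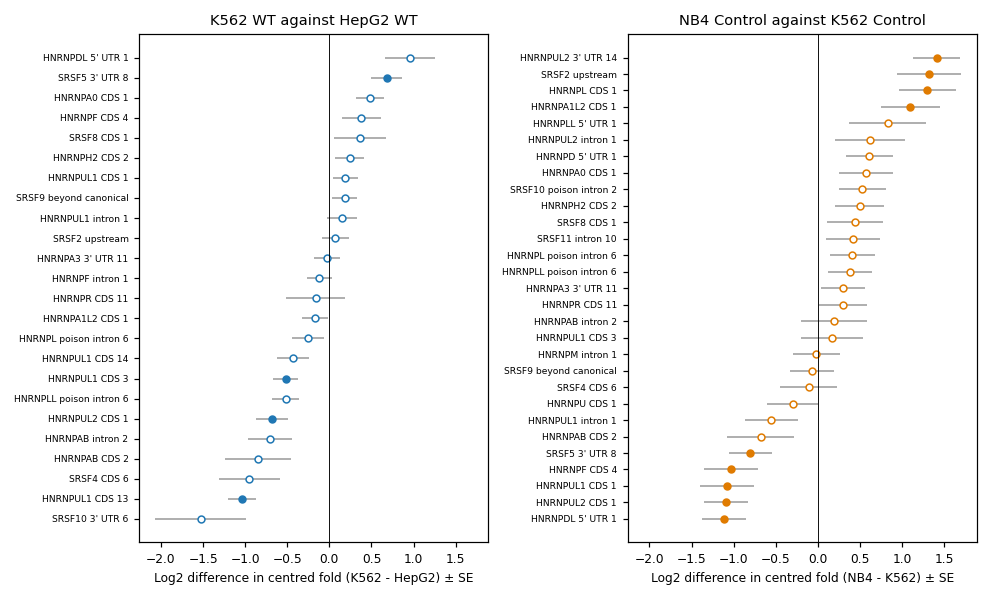
Log2 difference in median-centred fold (horizontal axis, ± SE) of each member region listed in all libraries of the comparison, for K562 WT against HepG2 WT (left, 24 regions, n = 2 and 2) and NB4 Control against K562 Control (right, 29 regions, n = 3 and 2). Filled points have a limma adjusted p under 0.05, 1 higher and 3 lower on the left and 4 higher and 5 lower on the right.

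The effect of RBFOX2 knockdown was examined within each line. In K562, of the 59 member regions listed in either group, none was lost from both KD libraries after being in both Control libraries, and 1 was gained, against 1.71% and 1.73% of all regions. The gained region lay in HNRNPA2B1 (chr7:26184913-26185105, percentiles 17.6 and 15.9 in KD), past the end of the canonical transcript and within an exon of another transcript. In NB4, of 76 regions, none was lost and 2 were gained, against 0.619% and 3.52% of all regions. They were SRSF11 exon 1 (chr1:70221464-70221921), with 25.7, 0.127 and 30.1 in KD, and the SRSF6 3′ UTR (chr20:43460633-43461382), with 3.62, 1.34 and 34.7. Another protein-coding gene model overlaps the SRSF6 region on the same strand. Opposite-strand peaks overlapped the SRSF6 region in 2 libraries, the HNRNPA2B1 region in 3 and the SRSF11 region in 0. SRSF11 and SRSF6 are SR family members that regulate exon choice. All 3 gained regions stood at 34.7 or less in KD, and the gained shares (1.69% in K562 and 2.63% in NB4) lay below the background. Leaving out K562 Control replicate 1 gave 9 lost regions in K562, and leaving out NB4 Control replicate 3 gave 6 gained regions in NB4. With fewer libraries to satisfy, such calls are easier to reach, and the share over all regions was not counted for these omissions.

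By fold, no member region passed the threshold on knockdown in either line. None of 39 did in K562, where limma called 0 of all 24783 regions (0%) and an unadjusted p under 0.05 was reached by 1 member region and by 974 of all regions (3.93%). None of 33 did in NB4, where limma called 0 of 17040 (0%) and 8 member regions had an unadjusted p under 0.05, as had 2419 of all regions (14.2%). Over both lines together the counts were 0 of 28 member regions and 0 of 10535 regions (0%), with 3 and 871 (8.27%) at an unadjusted p under 0.05. The median log2 difference of the members was -0.06 in K562 and 0.11 in NB4, and that of all regions was 0.00 in both. Centring on each library's median holds the median of all regions near 0, so it is not an observed background. Of the member regions, 17 of 39 lay above 0 in K562 and 24 of 33 in NB4, but with the probit of the percentile in place of fold the counts were 22 of 39 and 15 of 33, and the NB4 median was -0.05. The share of all regions above 0 was not counted. These calls come from 2 against 2 and 3 against 3 libraries, and a p above the threshold does not show that a region was unaffected.

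The largest differences in NB4 were in SRSF11, SRSF9 and HNRNPA2B1. Intron 10 of SRSF11 (chr1:70250247-70250824) had folds of 1.84, 2.94 and 1.81 in Control and 4.5, 4.51 and 4.04 in KD, without overlap, for a log2 difference of 1.02 ± 0.25 (SE, adjusted p = 0.198). Its percentile was 32.1, 81.8 and 37.8 in Control and 93.8, 94.4 and 89.4 in KD. The SRSF9 5′ UTR (chr12:120469474-120469749) had folds of 5.69, 5.71 and 5.91 in Control and 14, 8.63 and 10.7 in KD, a log2 difference of 0.91 ± 0.24 (adjusted p = 0.205). The HNRNPA2B1 region past the canonical transcript (chr7:26175915-26176499) had folds of 15.5, 14 and 12.6 in Control and 7.5, 8.84 and 8.85 in KD, also without overlap, and a log2 difference of -0.75 ± 0.20 (adjusted p = 0.209). The effective depth was 10.8, 14.1 and 17.2 in NB4 Control and 21.9, 18.6 and 16.8 in NB4 KD (in 1e6 reads). With lists shortened to equal depth, 0 of 33 member regions passed, their median was 0.14 and 25 lay above 0. Whether depth caused these differences was not tested.

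In K562 the largest differences were the SRSF10 3′ UTR (0.83 ± 0.47, adjusted p = 1), the SRSF9 stretch shared with NRAV at chr12:120490118-120490678 (-0.71 ± 0.27, adjusted p = 1) and intron 1 of HNRNPUL2 (0.68 ± 0.36, adjusted p = 1). The SRSF10 value rested on folds of 2.48 and 3.79 in Control and 9.95 and 3.51 in KD, which overlapped, and was 0.11 without K562 RBFOX2 KD replicate 1 and 1.57 without K562 RBFOX2 KD replicate 2. The HNRNPUL2 value was 0.16 without K562 Control replicate 1 and 1.22 without K562 Control replicate 2. Over both lines, the largest were intron 1 of HNRNPUL2 (0.56 ± 0.26, adjusted p = 0.589), HNRNPA0 (-0.49 ± 0.23, adjusted p = 0.591) and intron 10 of SRSF11 (0.45 ± 0.20, adjusted p = 0.589). With 1 library left out, HNRNPUL2 ranged from 0.29 (without K562 Control replicate 1) to 0.84 (without K562 Control replicate 2), HNRNPA0 from -0.62 to -0.35 and SRSF11 from 0.30 to 0.60, and none passed.

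Among the regions in introns with a poison exon, SRSF10 intron 2 differed by -0.63 ± 0.39 in K562 and 0.09 ± 0.22 in NB4 on the log2 scale. HNRNPL intron 6 differed by 0.42 ± 0.30 in K562 and 0.00 ± 0.26 in NB4, and HNRNPLL intron 6 by -0.11 ± 0.26 in K562 and 0.20 ± 0.21 in NB4. None of these passed the threshold. The test of whether the knockdown effect differed between K562 and NB4 called 0 of 28 member regions and 0 of 10535 regions (limma, 0%), with 3 member regions and 814 of all regions (7.73%) at an unadjusted p under 0.05. The largest differences, given as the K562 effect minus the NB4 effect, were in SRSF11 intron 10 (-1.10 ± 0.41, adjusted p = 0.584), the HNRNPD 5′ UTR (-0.94 ± 0.37, adjusted p = 0.611) and the SRSF9 region listed in every library (0.85 ± 0.30, adjusted p = 0.574). HNRNPD encodes AUF1, a binder of AU-rich elements.

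**Figure D5:**
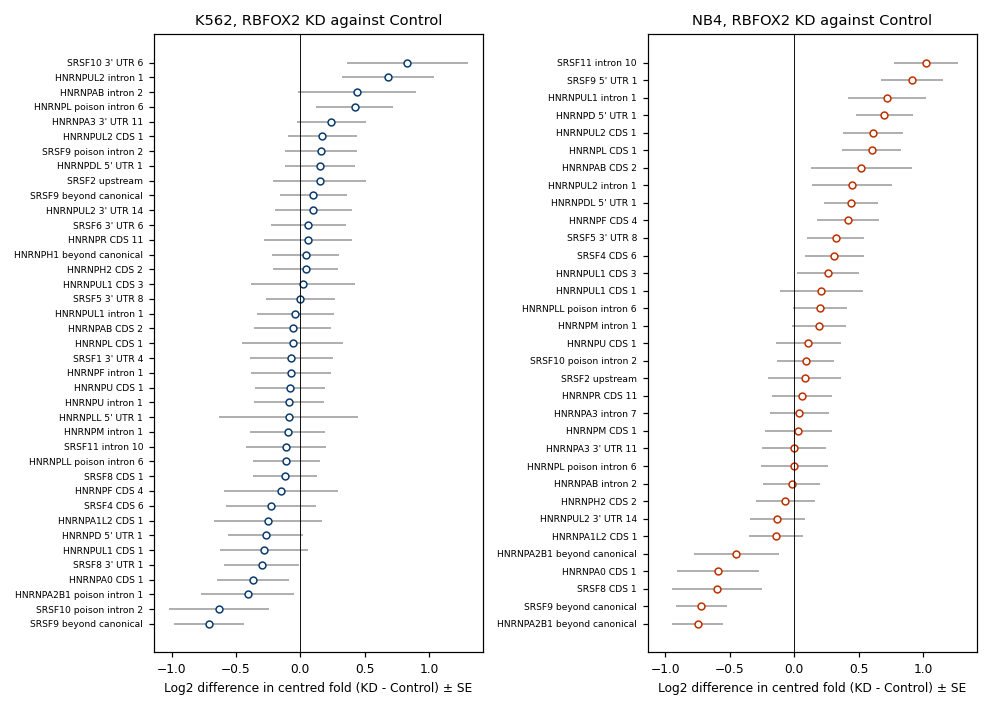
Log2 difference in median-centred fold (horizontal axis, KD minus Control, ± SE) of each member region listed in all libraries of a line, for K562 (left, 39 regions, n = 2 and 2) and NB4 (right, 33 regions, n = 3 and 3). All points are open because none had a limma adjusted p under 0.05, the largest in NB4 being SRSF11 intron 10 at 1.02.

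For context, 39 other genes of the splicing machinery, among them the SR protein kinases, the U2 auxiliary factors and further RNA-binding regulators, were read in the same way. Of these, 16 (41%) had a summit in all 14 libraries, 22 in some and 1, the kinase gene CLK1, in none. SRRM2, a scaffold of nuclear speckles, ACIN1, a component of exon junction complexes, CLK3, which phosphorylates SR proteins, and SON, another speckle scaffold, had the most summits over the 14 libraries (175, 98, 86 and 81). The share listed in every library was 48.7% for the SR and hnRNP genes, and the difference from this list was not tested.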

How the data were processed

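The authors trimmed reads with Trimmomatic 0.39, aligned them to hg38 with HISAT2 2.1.0 using GENCODE release 29, separated them by strand with SAMtools 1.9 and called peaks with MACS2 on each strand of each library (extension 150 bases, up to 5 duplicates, genome size 1.3e8, q under 0.01), with replicates kept apart. The deposited columns are a score, the summit fold (a ratio), the −log10 p and −log10 q, and the summit offset. Whether input served as the background of the caller is not given in the sources used here, and the 14 input libraries were not analysed here.

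The members and lists were chosen with earlier results of these data known. Peaks were annotated with GENCODE release 44 on hg38 (none of 496678 peaks passed a chromosome end), merged by strand and ranked by −log10 q. An intron or exon number refers to the Ensembl canonical transcript. Effective reads were solved from the fold and the Poisson p of each peak. Log2 fold, centred on the median of each library, was tested with limma 3.58.1 (R 4.3.3) over regions listed in all libraries compared, with Benjamini-Hochberg adjustment over all of them (threshold 0.05), a step also tested on simulated data. Fold below the calling limit was not seen, so a missing peak is not a value of 0. Named regions were the 10 of highest mean percentile among those listed in all 14 libraries, every region lost, gained or listed in 1 group of a line comparison, every region past the limma threshold (the 8 largest where more passed, the 3 largest where none did), regions in introns with a poison exon in at least 7 libraries, and genes without a summit. The 9th region of the NB4 comparison and the regions of SRSF1, SRSF8 and SRSF9 were named after their values were seen.

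Whether the replicate numbers pair the samples is not given in the labels. Same-numbered libraries correlated by -0.113 to 0.0318 in their deviations from the group mean. With so few libraries a group, these values cannot settle whether samples were paired. Python 3.11.15, pandas 2.3.3 and scipy 1.17.1 were used. Alternatives covered normalization, measure, peak threshold, list size, depth, region definition, replicates, the poison exon definition and the motif window.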

Additional observations from a re-analysis of the deposited data

How the results depend on the processing

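The number of member regions called between K562 WT and HepG2 WT was 4 and became 2 with the probit of the percentile, and ranged from 0 to 6 when 1 library was left out. Between NB4 Control and K562 Control it was 9 and became 5 with the probit and 4 with lists shortened to equal size, and ranged from 2 to 7 with 1 library left out. With the probit the log2 differences of the HNRNPDL 5′ UTR, HNRNPUL2 exon 1 and HNRNPUL1 exon 1 changed sign, to 0.06, 0.51 and 0.12 on the probit scale. Regions lost on knockdown in K562 (0) became 1 with fixed windows around summits and ranged from 0 to 9 with 1 library left out, and regions gained (1) became 0 with equal lists and 2 with summit windows and ranged from 2 to 3. Regions gained in NB4 (2) became 1 at −log10 q of at least 5, 0 with equal lists and 1 with lists shortened to equal depth, and ranged from 2 to 6. Regions in HepG2 WT only (2) became 1 at −log10 q of at least 5 and ranged from 2 to 10, and those in K562 WT only (18) became 6 with equal lists and ranged from 18 to 30. Regions in K562 Control only (5) became 2 with equal lists and ranged from 5 to 15, and those in NB4 Control only (3) became 6 with equal lists and 6 with summit windows and ranged from 3 to 5. With equal lists 1 region lay upstream of a gene and 20 in other introns. Under the alternatives, presence was counted over member regions only, so these counts have no share over all regions beside them. By uncentred log2 fold the highest group was in HepG2 for 0, in K562 for 18 and in NB4 for 2 regions, with no such count over all regions.

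With the replicate number added to the fit as a block, the calls were 0 in K562 KD, 0 in NB4 KD, 0 over both lines, 0 for the difference between lines, 6 for K562 against HepG2 and 10 for NB4 against K562. Of the values of named regions under the alternatives, 257 kept direction and side of the threshold, 48 kept direction only and 3 changed sign, and 226 of the counts stayed within 1.5 times of the reported one. The causes were not tested. Peak lists hold no values below the calling limit, so an absent region may be a weak one.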
